A study of Homo sapiens with 12 samples.

Results

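A set of 10 zinc transporter genes, SLC30A1, SLC30A4, SLC30A5, SLC30A6, SLC30A7, SLC30A9, SLC39A6, SLC39A9, SLC39A10 and SLC39A14, was followed on arrays of RNA pulled down with an antibody to HuR or with control IgG. They are 10 of the 24 SLC30 and SLC39 genes measured and 10 of the 33458 genes tested. The genes were chosen by name from a family selected on the olaparib arrays, where SLC30A7 lay highest of these genes above IgG-IP, so every HuR-IP to IgG-IP value from the olaparib arrays is given here as a description with no test. They were also chosen with earlier results of the other arrays known. Each gene is represented by a transcript cluster (the probe set that summarises a transcript on the array) that carries its symbol alone, and by the brightest such cluster where there were several. This applied to SLC39A10, with a mean log2 signal of 13.22 for the cluster used and 4.63 for the other. No filter on low values was applied, and all 10 genes had a mean signal above 6 on the log2 scale, where cluster medians of the 12 arrays were 3.71 to 3.94 and medians of background features 2.88 to 3.01.

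HuR, the product of ELAVL1, is an RNA-binding protein that shuttles from the nucleus to the cytoplasm under stress, and ribonucleoprotein immunoprecipitation (RNP-IP) recovers it together with bound transcripts. Cytoplasmic lysates of Mia PaCa-2 cells, an established human line of pancreatic ductal adenocarcinoma, were subjected to HuR-IP or to IgG-IP, the antibody control, after DMSO, after 16 h of olaparib at 10 µM (a PARP inhibitor) or after 16 h of gemcitabine at 1 µM (a nucleoside analog). Each of these 6 groups has 2 Clariom D arrays, numbered 1 and 2 and called biological replicates in the labels, which do not say how they were prepared, so that p-values measure only the spread between these arrays. All 12 arrays come from this single cell line, and no array of total cytoplasmic RNA was analysed here. The amount of an mRNA in the cell and the share of it bound by HuR therefore cannot be told apart.

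Cells keep free zinc low by moving it across membranes. SLC30 proteins (ZnT) carry zinc out of the cytosol, across the plasma membrane or into organelles and vesicles, and SLC39 proteins (ZIP) carry it into the cytosol from outside the cell or from organelles. In the pancreas zinc is handled at high flux, in acinar cells for secretion and in beta cells for insulin storage. HuR is best known for binding U-rich and AU-rich stretches in 3′ untranslated regions, where it stabilises mRNAs.

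Before the genes are compared, a property of the arrays has to be stated. HuR-IP array 2 of DMSO and HuR-IP array 2 of gemcitabine stood apart from the other 4 HuR-IP arrays. On the leading principal component, which held 63.4% of the variance, the 6 IgG-IP arrays lay between -80.27 and -72.12, the 4 HuR-IP arrays between 107.49 and 140.34, and these 2 arrays at -27.62 and -20.76. For 9139 genes the mean signal exceeded 6 (brighter genes), and among them the SD of HuR-IP minus IgG-IP at equal array number was 1.12 and 1.20 for these 2 arrays and 2.02 to 2.24 for the other 4. The difference of each transporter in DMSO and gemcitabine is accordingly given with and without them. These arrays were picked out for lying nearer to IgG-IP, which is the quantity compared, so that a larger difference without them follows in part from the choice, and values without them are descriptions. ELAVL1 mRNA itself lay 0.90 above IgG-IP in DMSO, 1.21 in gemcitabine and 1.46 in olaparib on the log2 scale (adjusted p = 0.809 in DMSO and 0.503 in gemcitabine by limma). Among defining markers, 3 of 8 ductal and epithelial genes (KRT7, KRT8 and KRT18) had a median signal above 6 and EPCAM and CFTR lay at 3.30 and 3.43, near background. VIM, COL1A1 and COL1A2 were the 3 of 4 mesenchymal markers above 6, and 0 of 3 blood, 0 of 2 endothelial and 0 of 3 acinar and endocrine markers were.

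The mean differences of the transporters lay on both sides of IgG-IP in the deposited scaling, and whether the genes differ from each other was not tested. SLC30A7 and SLC39A9 had the largest mean differences above IgG-IP in every treatment. On HuR-IP array 2 of DMSO, however, they exceeded IgG-IP array 2 by only 0.90 and 0.79. The means of SLC39A10, SLC30A4 and SLC30A6 lay above IgG-IP by less. SLC30A5, SLC30A9 and SLC39A14 had means above it with overlapping arrays in most treatments. SLC30A1 and SLC39A6 had means below IgG-IP, which cyclic loess between arrays turned above it for both in gemcitabine and for SLC30A1 in DMSO. The median difference over the 10 genes was 1.08 in DMSO, 1.54 in gemcitabine and 1.66 in olaparib on the log2 scale, beside -0.09, -0.07 and -0.07 over all genes and -0.24, -0.47 and -0.91 over the brighter genes. Cyclic loess between arrays turned the last 3 values to 0.14, 0.14 and -0.025. It raised the differences of the 10 genes as well, with a median of 2.76 over them in olaparib. In limma's moderated test with Benjamini-Hochberg adjustment over all genes, 0 of the 10 were called in DMSO and 0 in gemcitabine at an adjusted p under 0.05, beside 0.0209% of all genes called higher and 0.478% called lower in DMSO, and 0.0568% and 0.977% in gemcitabine. At an unadjusted p under 0.05, 3 were higher in DMSO (SLC30A4, SLC30A7 and SLC39A9), beside 1.79% of all genes and 4.25% of brighter genes. In gemcitabine 4 were higher (the same 3 and SLC30A6), beside 2.87% and 5.33%. No member was lower at that threshold in either treatment, where 5.77% and 7.53% of all genes were. The members were chosen with earlier results of these data known, so these counts and the median differences are not independent of that choice. The 5 other family genes with a mean signal above 6 had DMSO differences of -0.44 (SLC39A1), -1.06 (SLC39A3), -0.82 (SLC39A4), 0.29 (SLC39A7) and -0.23 (SLC39A8).

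**Figure D1:**
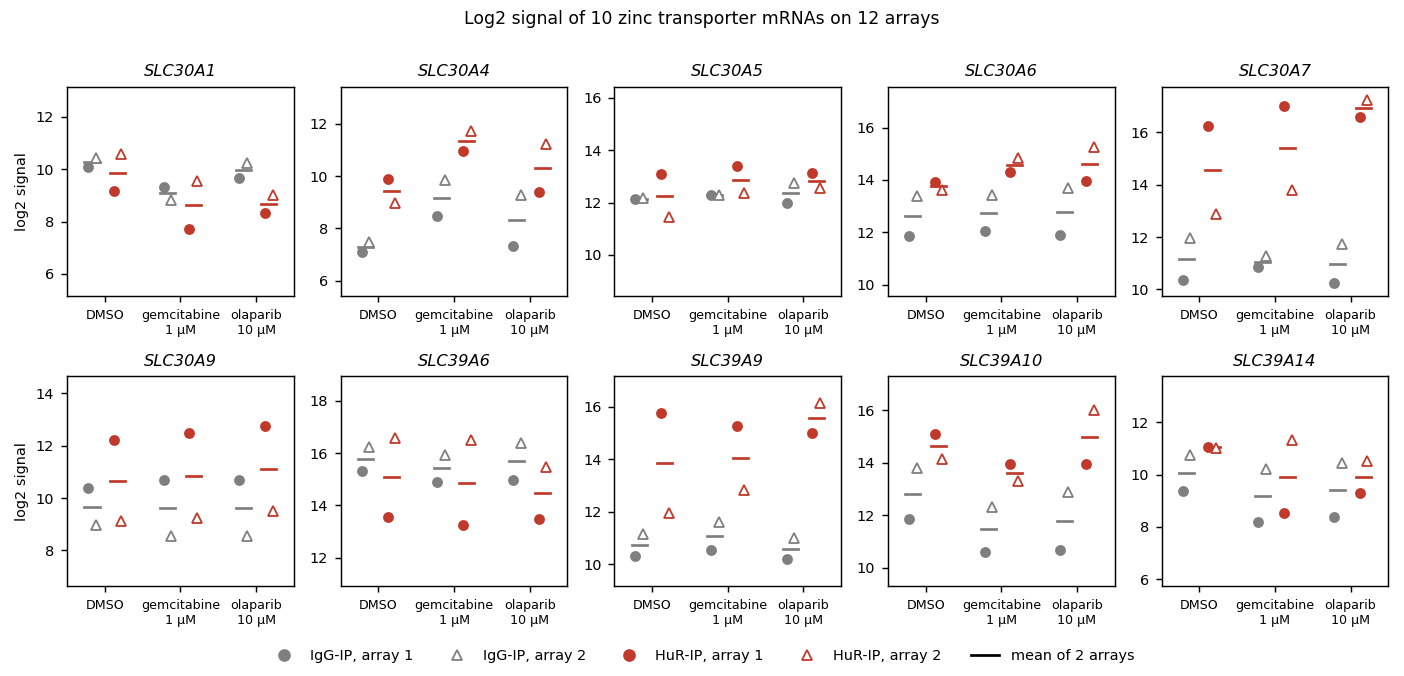
Log2 signal of each zinc transporter mRNA (vertical axis, spanning 8 log2 units in every panel) on the 12 arrays by treatment (horizontal axis), with IgG-IP in grey, HuR-IP in red, array 1 as filled circles, array 2 as open triangles and the mean of 2 arrays as a bar. In SLC30A7 and SLC39A9 all 6 HuR-IP arrays lie above all 6 IgG-IP arrays, and in SLC30A9 and SLC39A6 the arrays numbered 1 and 2 separate within each antibody.

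SLC30A7 (ZnT7) loads zinc into the Golgi and the early secretory pathway, where it serves enzymes such as alkaline phosphatases. In DMSO its log2 signal was 10.35 and 11.96 on the IgG-IP arrays and 16.25 and 12.87 on the HuR-IP arrays. In gemcitabine it was 10.85 and 11.26 with IgG and 17.01 and 13.81 with HuR. In olaparib it was 10.24 and 11.73 with IgG and 16.59 and 17.24 with HuR. The antibody groups did not overlap in any treatment, the smallest gap being 0.90 in DMSO, and HuR-IP array 2 of DMSO and of gemcitabine gave the lowest of the 6 HuR-IP values. SLC30A7 differed by 3.40 on the log2 scale in DMSO (SE 1.29, fold 10.6, adjusted p = 0.539 by limma) and by 4.36 in gemcitabine (SE 1.29, fold 20.5, adjusted p = 0.229). In olaparib, the arrays on which the gene was picked, it was 5.92, or 60.7-fold, and 7.02 on the log2 scale after cyclic loess or 6.68 after centring the arrays on brighter genes. With HuR-IP array 1 alone the difference was 5.09 in DMSO and 5.96 in gemcitabine, and with HuR-IP array 2 alone it was 1.71 and 2.76.

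SLC39A9 (ZIP9), a ZIP family protein of the Golgi and the plasma membrane, followed the same course. Its signal in DMSO was 10.32 and 11.16 with IgG and 15.76 and 11.95 with HuR. In gemcitabine it was 10.55 and 11.60 with IgG and 15.29 and 12.81 with HuR, and in olaparib 10.18 and 11.00 with IgG and 15.00 and 16.15 with HuR. Again no HuR-IP array fell among the IgG-IP arrays, and the lowest HuR-IP values came from array 2 of DMSO and array 2 of gemcitabine. On the log2 scale SLC39A9 differed by 3.12 in DMSO (SE 1.22, adjusted p = 0.572 by limma), by 2.98 in gemcitabine (SE 1.22, adjusted p = 0.441) and by 4.98 in olaparib. With HuR-IP array 1 alone it was 5.02 in DMSO and 4.21 in gemcitabine, and with array 2 alone 1.21 and 1.74. When HuR-IP array 2 of both treatments was left out of the fit, the lone array of each was assumed to vary like the other groups and 2 members, SLC30A7 and SLC39A9, had an adjusted p under 0.05 by limma in each treatment, beside 1.78% of all genes called higher and 1.35% lower in DMSO and 2.22% and 3.31% in gemcitabine. At an unadjusted p under 0.05 that fit gave 3 members higher in each treatment, beside 6.6% and 7.28% of all genes, and 1 lower, beside 6.98% and 10.7%. Since the arrays left out were those nearer to IgG-IP, these counts are no support for a difference.

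SLC30A5, SLC30A6 and SLC30A4 are the other ZnT proteins of secretory and endosomal membranes. ZnT5 and ZnT6 act as a heterodimer in the early secretory pathway, with transport carried out by ZnT5, and ZnT4 fills vesicles of the endosomal and lysosomal system. SLC30A6 gave 11.84 and 13.39 with IgG and 13.91 and 13.61 with HuR in DMSO. With gemcitabine it gave 12.05 and 13.41 against 14.31 and 14.82, and with olaparib 11.88 and 13.71 against 13.97 and 15.27. Its antibody groups did not overlap in any treatment, but the gap was 0.22 in DMSO and 0.26 in olaparib, less than the 1.37 to 1.83 that separated the 2 IgG-IP arrays of a treatment. SLC30A6 thus lay 1.15 above IgG-IP on the log2 scale in DMSO (SE 0.78, adjusted p = 0.829 by limma), 1.84 in gemcitabine (adjusted p = 0.465) and 1.83 in olaparib. With HuR-IP array 1 alone the difference was 1.30 in DMSO and 1.58 in gemcitabine.

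SLC30A5, its partner, had IgG-IP signals of 12.14 and 12.17 and HuR-IP signals of 13.08 and 11.45 in DMSO. In gemcitabine these were 12.29 and 12.29 against 13.39 and 12.35, and in olaparib 11.97 and 12.74 against 13.12 and 12.56. The HuR-IP array numbered 1 was the highest of its treatment each time, while the array numbered 2 fell below both IgG-IP values in DMSO, just above both in gemcitabine and between them in olaparib. SLC30A5 gave a log2 difference of 0.11 in DMSO, 0.58 in gemcitabine and 0.49 in olaparib, with an SE of 0.56 (adjusted p = 0.992 in DMSO and 0.786 in gemcitabine by limma). With HuR-IP array 1 alone the difference was 0.93 in DMSO and 1.10 in gemcitabine. No test was made of whether SLC30A5 and SLC30A6 differ from each other, since signals of different probe sets are not on a common scale.

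SLC30A4 was above IgG-IP with and without the 2 arrays that stood apart. Its signal was 7.12 and 7.50 with IgG and 9.88 and 8.97 with HuR in DMSO, and 8.48 and 9.85 with IgG and 10.96 and 11.71 with HuR in gemcitabine. In olaparib it was 7.31 and 9.30 with IgG and 9.41 and 11.21 with HuR, where the gap between the groups was 0.11. For SLC30A4 the log2 difference was 2.11 in DMSO (SE 0.82, adjusted p = 0.564 by limma), 2.16 in gemcitabine (adjusted p = 0.387) and 2.00 in olaparib. Leaving out those arrays gave 2.57 and 1.79.

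SLC39A10 and SLC39A6 encode ZIP10 and ZIP6, closely related importers of the plasma membrane that form a heteromer, and in the deposited scaling their mRNAs had means on different sides of IgG-IP. SLC39A10 gave 11.85 and 13.81 with IgG and 15.12 and 14.14 with HuR in DMSO. In gemcitabine it gave 10.58 and 12.33 against 13.97 and 13.30, and in olaparib 10.65 and 12.90 against 13.94 and 16.02. No treatment showed an overlap, and the IgG-IP array numbered 2 was above that numbered 1 by 1.75 to 2.24. SLC39A10 differed by 1.80 on the log2 scale in DMSO (SE 1.04, adjusted p = 0.789 by limma), by 2.18 in gemcitabine (adjusted p = 0.533) and by 3.21 in olaparib. Taking the mean of both SLC39A10 clusters, it was 0.81, 1.37 and 2.31. With HuR-IP array 1 alone, the cluster used gave 2.29 in DMSO and 2.51 in gemcitabine.

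SLC39A6 gave 15.31 and 16.24 with IgG in DMSO and 13.56 and 16.59 with HuR. In gemcitabine it gave 14.90 and 15.93 against 13.27 and 16.48, and in olaparib 14.95 and 16.40 against 13.46 and 15.46. On the HuR-IP arrays numbered 1 it was below both IgG-IP arrays in every treatment, and on those numbered 2 of DMSO and gemcitabine it was above both. In SLC39A6 the log2 difference was -0.70 in DMSO (SE 1.29, adjusted p = 0.958 by limma), -0.54 in gemcitabine (adjusted p = 0.931, and 0.26 after cyclic loess between arrays) and -1.21 in olaparib. Cyclic loess gave -0.17 in DMSO and -0.14 in olaparib, and centring the arrays on brighter genes gave -0.46 in olaparib. With HuR-IP array 1 alone the difference was -2.21 in DMSO and -2.15 in gemcitabine, and with array 2 alone 0.81 and 1.07.

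SLC30A1 (ZnT1), the main zinc exporter of the plasma membrane and a gene induced by zinc through the factor MTF1, showed the same switch between array numbers. It gave 10.09 and 10.44 with IgG and 9.15 and 10.58 with HuR in DMSO, and 9.34 and 8.82 with IgG and 7.72 and 9.56 with HuR in gemcitabine. In olaparib the values were 9.68 and 10.24 with IgG and 8.34 and 9.01 with HuR, and there both HuR-IP arrays lay below both IgG-IP arrays. For SLC30A1 the log2 difference was -0.40 in DMSO (SE 0.66, adjusted p = 0.95 by limma), -0.43 in gemcitabine (adjusted p = 0.877) and -1.28 in olaparib. Cyclic loess turned it to 0.06 in DMSO and 0.26 in gemcitabine. In olaparib cyclic loess gave -0.22, and centring the arrays on brighter genes gave -0.53. With HuR-IP array 1 alone the difference was -1.11 in DMSO and -1.36 in gemcitabine, and with array 2 alone 0.31 and 0.49.

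SLC30A9 (ZnT9), which exports zinc from mitochondria, was separated by array number more than by antibody. Its signal in DMSO was 10.37 and 8.96 with IgG and 12.23 and 9.11 with HuR, in gemcitabine 10.69 and 8.56 against 12.50 and 9.22, and in olaparib 10.68 and 8.56 against 12.74 and 9.49. The log2 signal of array 2 minus that of array 1 was -2.12 to -1.40 in IgG-IP and -3.28 to -3.12 in HuR-IP, so that the antibody groups overlapped in all 3 treatments. At equal array number HuR-IP lay above IgG-IP in all 6 comparisons, by 0.14 to 2.06, and the share of all genes that did so was not counted. Against the mean of both IgG-IP arrays, HuR-IP array 2 gave -0.56 in DMSO, -0.40 in gemcitabine and -0.13 in olaparib, while the arrays numbered 1 lay above it. HuR-IP minus IgG-IP was 1.00, 1.24 and 1.49 on the log2 scale in DMSO, gemcitabine and olaparib, with an SE of 1.59 (adjusted p = 0.947 in DMSO and 0.846 in gemcitabine by limma). With HuR-IP array 1 alone the difference was 2.56 in DMSO and 2.88 in gemcitabine. Of the brighter genes, 20.1% had the IgG-IP array numbered 1 above that numbered 2 by over 1 log2 unit in every treatment. The opposite order, seen in SLC30A6, SLC39A10 and SLC39A14, held for 4.18%. With the array number as a block, SLC30A9 had an adjusted p of 0.451 in DMSO and 0.257 in gemcitabine by limma. Whether the number marks a shared preparation was not tested.

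SLC39A14 (ZIP14), an importer of zinc, iron and manganese at the plasma membrane, gave 9.39 and 10.76 with IgG and 11.05 and 11.02 with HuR in DMSO. In gemcitabine it gave 8.18 and 10.20 against 8.53 and 11.32, and in olaparib 8.40 and 10.46 against 9.31 and 10.50. The antibody groups were apart in DMSO alone, by 0.26, and overlapped with both drugs. At equal array number HuR-IP lay above IgG-IP in all 6 comparisons here too, by 0.04 to 1.66, a pairing that the labels do not state. The share of all genes that did so was not counted. Against the mean of both IgG-IP arrays, SLC39A14 gave -0.66 on HuR-IP array 1 of gemcitabine and -0.12 on that of olaparib, and lay above it on the others. Its mean log2 difference was 0.96 in DMSO (SE 1.09, adjusted p = 0.918 by limma), 0.74 in gemcitabine (adjusted p = 0.874) and 0.48 in olaparib. Without the 2 arrays it was 0.98 in DMSO and -0.66 in gemcitabine.

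**Figure D2:**
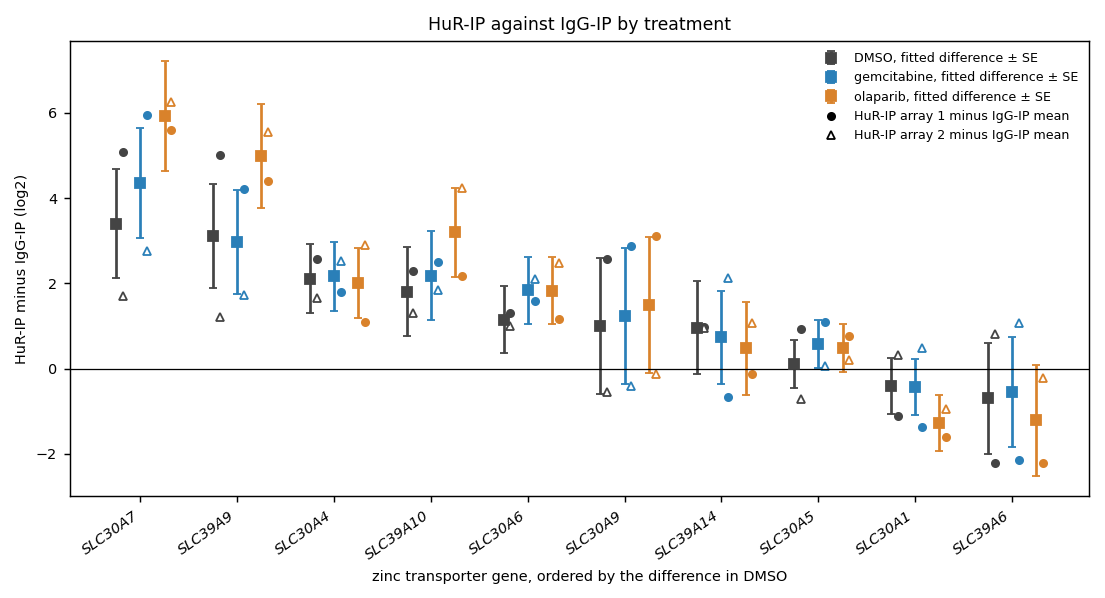
HuR-IP minus IgG-IP (vertical axis, log2) for each zinc transporter gene (horizontal axis), with squares and bars for the fitted difference ± SE in each treatment and smaller symbols for each HuR-IP array minus the mean of its 2 IgG-IP arrays. SLC30A7 reaches 5.92 and SLC39A9 4.98 in olaparib, and for both genes the open triangles of DMSO and gemcitabine (array 2) lie well below the filled circles (array 1).

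The count of genes with both HuR-IP arrays above both IgG-IP arrays was 6 of 10 in DMSO (SLC30A4, SLC30A6, SLC30A7, SLC39A9, SLC39A10 and SLC39A14), beside 12.7% of all genes and 13.9% of brighter genes. In gemcitabine it was also 6 of 10, with SLC30A5 in place of SLC39A14, beside 14.6% and 12.9%. With olaparib it was 5 of 10, beside 20.4% and 21.7%, and 1 of 10 (SLC30A1) had both HuR-IP arrays below, beside 30.0% and 50.1%, which are descriptions since the list was made on those arrays. SLC30A4, SLC30A6, SLC30A7, SLC39A9 and SLC39A10 were above IgG-IP without overlap in all 3 treatments, beside 3.22% of all genes and 7.99% of brighter genes. When the 4 HuR-IP arrays of DMSO and gemcitabine were set against their 4 IgG-IP arrays together, SLC30A6, SLC30A7 and SLC39A9 did not overlap, beside 2.89% of all genes and 6.01% of brighter genes. With all 3 treatments together, 6 arrays against 6, SLC30A7 and SLC39A9 did not, beside 1.74% and 5.1%. The members were chosen with results of these arrays known, and their share is not independent of them.

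Since 2 HuR-IP arrays carried smaller differences, each array was also read by rank. For every HuR-IP array the difference from the mean of its IgG-IP arrays was placed among the 9139 brighter genes. SLC30A7 held the 97.7th and 97.9th percentiles on the arrays numbered 1 and 2 of DMSO, the 99.0th and 99.5th in gemcitabine, and the 98.8th and 99.9th in olaparib, where it ranked 109 and 6. SLC39A9 lay between the 93.3rd percentile, on the DMSO array numbered 2, and the 99.7th, on the olaparib array numbered 2.

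For SLC30A4 and SLC30A6 array 2 ranked above array 1 in every treatment, at the 97.5th against the 88.2nd percentile for SLC30A4 in DMSO and the 98th against the 81.4th for SLC30A6 in gemcitabine, and in olaparib at the 93.9th against the 78.0th for SLC30A4 and the 91.9th against the 78.7th for SLC30A6. These ranks use the mean of both IgG-IP arrays, and for both genes IgG-IP array 2 lay above array 1 in every treatment. At equal array number, array 1 gave the larger log2 difference in every treatment for both genes. In DMSO it was 2.76 against 1.47 for SLC30A4, and in gemcitabine 2.26 against 1.41 for SLC30A6. SLC39A10 ran from the 86.1st to the 98.1st percentile over the 6 arrays. SLC39A6 showed the widest range, from the 10.3rd percentile on the DMSO array numbered 1 to the 88.1st on the gemcitabine array numbered 2. SLC30A9 ran the other way, at the 88.2nd to 91.7th percentile on arrays numbered 1 and the 34.4th to 66.4th on arrays numbered 2.

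**Figure D3:**
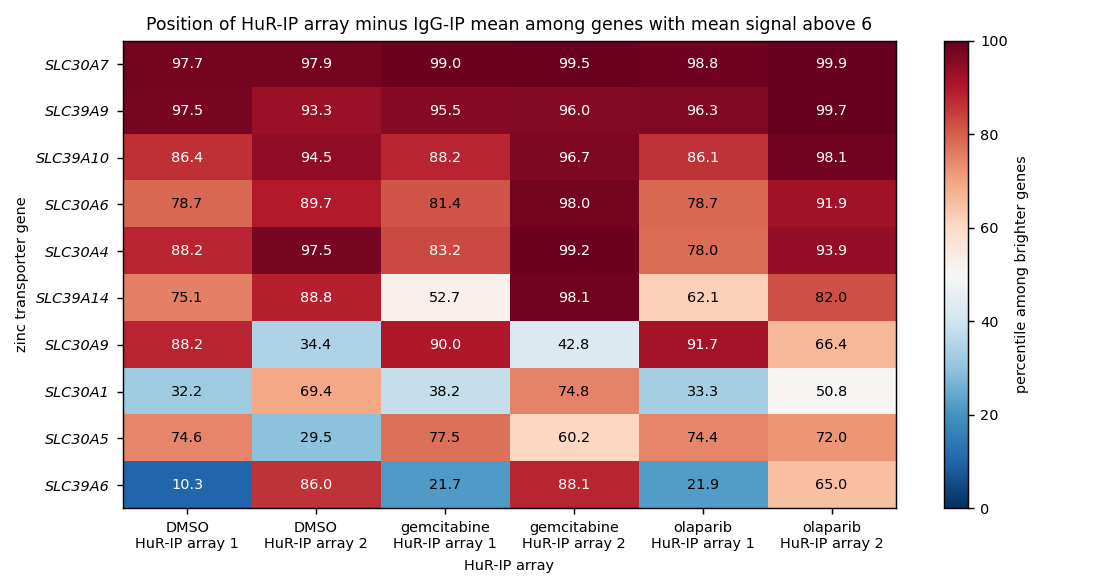
Percentile of each zinc transporter gene (rows) among the 9139 genes with a mean signal above 6, ranked by HuR-IP array minus the mean of the IgG-IP arrays of its treatment, for the 6 HuR-IP arrays (columns), with the percentile printed in each cell and shown by colour. SLC30A7 stays at or above the 97.7th percentile on all 6 arrays, and SLC39A6 moves from 10.3 to 86.0 between the 2 DMSO arrays.

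RNP-IP was used in the study to look for direct targets of HuR, with the drugs as stressors, and the transporters were compared between treatments in the same fit. The difference from IgG-IP in gemcitabine minus that in DMSO was 0.96 for SLC30A7, with a 95% interval of -3.20 to 5.11, and -0.14 for SLC39A9, with an interval of -4.09 to 3.81. For SLC30A6 it was 0.69 (interval -1.84 to 3.22) and for SLC30A5 0.47 (interval -1.34 to 2.28). None of the 10 was called (limma, 0 at an unadjusted p under 0.05 as well), beside 0.0% of all genes called and 0.888% higher and 0.625% lower at the unadjusted threshold. The intervals hold changes in either direction.

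On the HuR-IP arrays alone, gemcitabine minus DMSO was 1.91 for SLC30A4 (SE 0.82, adjusted p = 1.00 by limma), the only member past the unadjusted threshold, beside 1.17% of all genes higher and 1.4% lower. On the IgG-IP arrays the same gene gave 1.86 (adjusted p = 1.00), with means of 7.31 and 9.17, and the difference of differences was 0.05. No member passed the unadjusted threshold on the IgG-IP arrays, beside 1.1% of all genes higher and 1.29% lower, and 0.0% of genes were called on either antibody. For SLC30A1 gemcitabine minus DMSO was -1.22 with HuR and -1.19 with IgG, and for SLC39A10 -1.0 with HuR and -1.37 with IgG, 4 values that did not pass it. For SLC30A7 it was 0.85 with HuR and -0.10 with IgG.

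Olaparib minus DMSO is given as a description. On the HuR-IP arrays it was 2.35 for SLC30A7, 1.72 for SLC39A9 and 0.35 for SLC39A10, and on the IgG-IP arrays -0.17, -0.15 and -1.05. The difference from IgG-IP was accordingly higher in olaparib by 2.52 for SLC30A7 (SE 1.82), by 1.87 for SLC39A9 (SE 1.73) and by 1.40 for SLC39A10 (SE 1.475), the 3 largest rises. Of the 10 members 6 were higher and 4 lower, with a median of 0.43 and the lowest value, -0.88, for SLC30A1. The single HuR-IP arrays of DMSO were unlike each other in their difference from IgG-IP. For SLC30A7 the array numbered 1 stood 5.09 above the IgG-IP mean in DMSO, 5.96 in gemcitabine and 5.60 in olaparib, while the array numbered 2 stood 1.71, 2.76 and 6.25 above it. For SLC39A9 the arrays numbered 1 gave 5.02, 4.21 and 4.40 and those numbered 2 gave 1.21, 1.74 and 5.56. Among arrays numbered 1 the 3 treatments thus lay within 0.87 for SLC30A7 and 0.81 for SLC39A9.

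The other 14 SLC30 and SLC39 genes were measured with the same rule. Of these, 5 had a mean signal above 6 (SLC39A1, SLC39A3, SLC39A4, SLC39A7 and SLC39A8) and the other 9 lay closer to background. The median difference from IgG-IP over the 14 was -0.08 in DMSO, -0.05 in gemcitabine and -0.26 in olaparib, and 0 were called in DMSO or gemcitabine by limma. At an unadjusted p under 0.05, 1 was higher and 0 lower in each, beside 1.79% and 2.87% of all genes higher. That gene was SLC39A11 (ZIP11), a zinc transporter of intracellular membranes, with IgG-IP signals of 5.18 and 4.73 and HuR-IP signals of 6.71 and 6.0 in DMSO. In gemcitabine it gave 4.84 and 5.57 against 6.47 and 6.73, and in olaparib 5.26 and 5.28 against 6.51 and 7.22. Its HuR-IP arrays lay above its IgG-IP arrays without overlap in all 3 treatments, as for 3.22% of all genes. SLC39A11 differed by 1.40 on the log2 scale in DMSO (SE 0.38, adjusted p = 0.276 by limma), 1.40 in gemcitabine (adjusted p = 0.187) and 1.60 in olaparib, although its mean signal was only 5.88.

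SLC39A4 and SLC39A8 had the other largest differences of the family outside the 10 genes in olaparib, both below IgG-IP. SLC39A4 (ZIP4), the importer of dietary zinc in the gut, gave 7.64 and 7.41 with IgG and 5.18 and 5.24 with HuR in olaparib, a log2 difference of -2.32, beside -0.82 in DMSO and -1.16 in gemcitabine (adjusted p = 0.844 and 0.559 by limma). SLC39A8 (ZIP8), the nearest relative of ZIP14 and likewise an importer of zinc and manganese, gave -1.58 in olaparib, -0.23 in DMSO and -0.10 in gemcitabine. These values are from its brightest cluster, with a mean signal of 10.74, and a further SLC39A8 cluster at 5.82 was not used. Like SLC39A6, SLC39A8 was below both IgG-IP arrays on HuR-IP array 1 of DMSO and of gemcitabine (9.38 and 8.57) and above both on those numbered 2 (12.50 and 13.75).

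**Figure D4:**
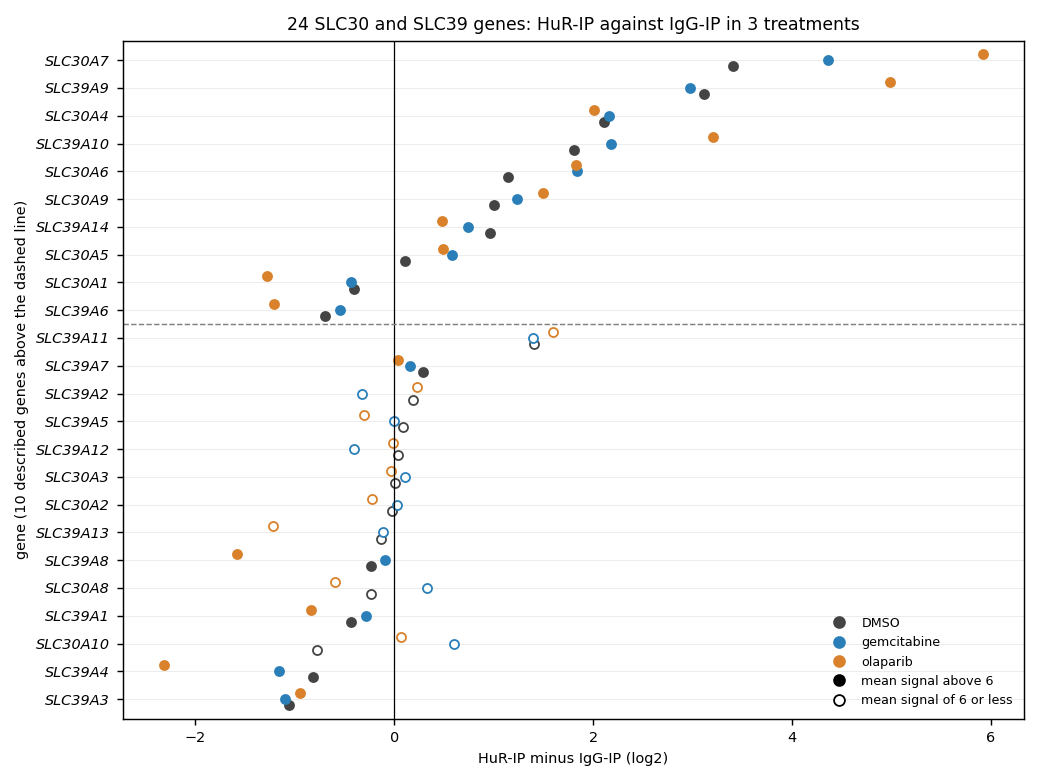
Fitted HuR-IP minus IgG-IP (horizontal axis, log2) for 24 SLC30 and SLC39 genes (rows, the 10 described genes above the dashed line), with a point per treatment and open points for genes with a mean signal of 6 or less. SLC30A7 and SLC39A9 lie farthest to the right in all 3 treatments, SLC39A11 keeps between 1.40 and 1.60, and SLC39A4 lies farthest to the left in olaparib at -2.32.

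Genes that buffer or sense zinc were looked at beside the transporters. Of 18 listed, 15 had a cluster of their own, and their median difference was -0.02 in DMSO, -0.56 in gemcitabine and -0.32 in olaparib. In DMSO 0 were called (limma, 0 higher and 1 lower at an unadjusted p under 0.05, beside 5.77% of all genes lower). In gemcitabine 1 was called lower (0 higher and 3 lower at the unadjusted threshold, MT1E, MT1M and MT2A), beside 0.977% of all genes called lower and 7.53% lower unadjusted. This was MT1M, a metallothionein, with signals of 7.65 and 7.20 with IgG and 5.99 and 5.71 with HuR, a log2 difference of -1.58 (SE 0.28, adjusted p = 0.0456 by limma). Metallothionein genes are near-identical copies, so that MT1M signal may hold that of its relatives, and the count of called genes fell to 0 when any of the 12 arrays was left out. Of the 15 genes, 7 had a mean above IgG-IP in DMSO and 5 in gemcitabine, and MT1X and CSNK2A2 were picked out from these after their values were seen. CSNK2A1, also listed, lay above IgG-IP by 0.89 and 0.71, without overlap in all 3 treatments, as did 3.22% of all genes. MT1X, a further metallothionein, differed by 2.87 in DMSO with overlapping arrays (adjusted p = 0.811 by limma) and by 3.0 in gemcitabine (adjusted p = 0.635), and with HuR-IP array 1 alone by 5.49 and 5.45. CSNK2A2, a catalytic subunit of the kinase CK2, which acts on ZIP7, differed by 1.86 and 1.76 (adjusted p = 0.696 and 0.538 by limma), and with HuR-IP array 1 alone by 2.99 and 3.03.

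Enzymes that receive zinc in the secretory pathway or act at the cell surface gave 16 measured genes of 17 listed. Their median difference was -0.05 in DMSO, 0.38 in gemcitabine and -0.07 in olaparib. In DMSO and gemcitabine 0 were called (limma, 0 and 1 higher at an unadjusted p under 0.05, beside 1.79% and 2.87% of all genes). That gene was ADAM10, a zinc metalloprotease that sheds surface proteins, at 1.06 in gemcitabine (SE 0.45, adjusted p = 0.452 by limma) and 0.87 in DMSO (adjusted p = 0.747). ADAM17, a sheddase of the same family, lay 1.08 above IgG-IP in DMSO and 1.69 in gemcitabine (adjusted p = 0.850 and 0.536 by limma), and 2.25 and 2.77 with HuR-IP array 1 alone.

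Over the 12 arrays the signal of SLC39A9 had a Pearson correlation of 0.985 with that of SLC30A7, the highest of the other 9 transporters. SLC39A10 followed at 0.834, SLC30A6 at 0.806 and SLC30A4 at 0.720, and SLC30A1 and SLC39A6 gave -0.642 and -0.555. Among 7097 protein-coding genes with a mean signal above 6 outside the family, the 5 most like SLC30A7 were FUT8, the fucosyltransferase of N-glycan cores (0.992), MMGT1, a subunit of the ER membrane protein complex (0.990), GOLT1B, a Golgi vesicle transport protein (0.990), MARVELD2, the tight junction protein tricellulin (0.990), and CD9, a tetraspanin (0.988). A correlation above 0.95 was found for 107 of these genes and above 0.9 for 315. The 12 points share the contrast between 6 HuR-IP and 6 IgG-IP arrays and the 2 HuR-IP arrays with intermediate values, and the correlations are given as a description.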

How the data were processed

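RNA from HuR-IP and IgG-IP of Mia PaCa-2 cytoplasmic lysates was measured on 12 Clariom D arrays in 6 groups of 2, grouped by the sample labels. The authors normalized the arrays in Affymetrix Expression Console 1.4, the submitters' processing notes name RMA, and the deposited values are log2 signals. RMA sets all arrays to a common distribution, so values are relative to the other transcripts of an array and carry no total amount of RNA. The genome build of the array files is not given in the sources used here, and no coordinates are given.

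Of 138745 features, 135750 were transcript clusters, of which 36176 carried 1 gene symbol in the platform annotation (updated with RefSeq names). Testing used 33458 genes, each through its brightest cluster. The deposited values entered limma 3.58.1 (R 4.3.3) as a model of 6 group means (residual degrees of freedom 6, prior 2.42), with Benjamini-Hochberg adjustment over all genes. Tables and plots were made in Python 3.11.15 with pandas 2.3.3 and matplotlib 3.10.9. The model was tested on simulated data. Correlations between arrays were 0.88 to 0.98. The number of arrays limits the precision.

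The text names all 10 members, family genes called in DMSO or gemcitabine with the 3 largest differences in olaparib, list genes called (otherwise the 2 with the largest moderated statistic), the 5 genes most like SLC30A7, and ELAVL1. Members and lists were chosen with earlier results of these data known. Further zinc homeostasis genes were named after their values were seen. Alternatives were another scaling, filter, prior, sample set or cluster rule, a replicate block, and leaving out arrays.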

Additional observations from a re-analysis of the deposited data

How the results depend on the processing

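Each group had 2 arrays, and a signal near background limits what a probe set can show. Of 20 alternatives, only leaving out HuR-IP array 2 of DMSO together with HuR-IP array 2 of gemcitabine changed the count of members called. It gave 2 members called higher in each treatment, 1 past an unadjusted p under 0.05 on the lower side in each, 595 genes higher and 451 lower in DMSO, 744 and 1106 in gemcitabine, 2 zinc homeostasis genes and 1 zinc enzyme in each treatment. It turned SLC39A14 in gemcitabine to -0.66 and the gemcitabine minus DMSO value of SLC30A4 to -0.78. These 2 arrays were chosen, with earlier results of these data known, for lying nearer to IgG-IP, so that this setting conditions on the quantity compared and its calls support nothing.

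The replicate numbers pair only 2 arrays a group, and over 15 pairs of groups the correlation of deviations from the group mean at equal number was 0.25 to 0.91. With the replicate number as a block, 0 members were called in DMSO or gemcitabine. At an unadjusted p under 0.05 (limma), 4 were higher in DMSO and 6 in gemcitabine (3 and 4 without the block). The share of all genes past that threshold with the block is not given here. These counts therefore cannot be read as particular to the members. Over all genes the block called 85 higher and 395 lower in DMSO and 164 and 757 in gemcitabine, against 7, 160, 19 and 327 without the block. Zinc homeostasis genes called in gemcitabine numbered 2 with the block.

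Scaling moved the median of all genes by up to 0.11 (cyclic loess) and that of brighter genes from -0.24 to 0.14 in DMSO and from -0.47 to 0.14 in gemcitabine (cyclic loess), and the median of all genes by 0.20 in DMSO, 0.39 in gemcitabine and 0.75 in olaparib (arrays centred on brighter genes). Cyclic loess gave 14 genes higher and 96 lower in DMSO, 34 and 164 in gemcitabine, and a member median of 2.76 in olaparib. It turned SLC30A1 to 0.0554 in DMSO and 0.26 in gemcitabine, SLC39A6 in gemcitabine to 0.26, and the gemcitabine minus DMSO values of SLC30A1, SLC39A9 and SLC39A14 to 0.20, 0.12 and 0.0152. Centring gave 3 higher and 94 lower in DMSO, 201 lower in gemcitabine, a member median of 2.41 in olaparib, and turned the gemcitabine minus DMSO values of SLC30A1 and SLC39A9 to 0.15 and 0.0472. With brighter genes only, 0 and 0 genes were called in DMSO and 7 higher and 217 lower in gemcitabine. A trended and robust prior, and a fit on the compared arrays alone, each called 0 genes in both directions and treatments. The latter left 1 member higher past an unadjusted p under 0.05 (limma) in DMSO and 5 in gemcitabine, where the share of all genes is not given here. Under loess, centring, brighter genes, this prior and this fit, 0 zinc homeostasis genes were called in gemcitabine. The cause was not tested.

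Leaving out each array in turn called 0 members. Genes called ranged from 0 to 7 higher and 0 to 176 lower in DMSO and from 0 to 20 and 29 to 312 in gemcitabine, with 0 higher without any of the 4 DMSO arrays and without the gemcitabine IgG-IP array numbered 1. Members past the unadjusted threshold ranged from 0 to 3 in DMSO (0 without the IgG-IP or the HuR-IP array numbered 1, 1 without the IgG-IP array numbered 2) and from 1 to 4 in gemcitabine (1 without the IgG-IP or the HuR-IP array numbered 1, 2 without the HuR-IP array numbered 2). The shares of all genes past that threshold in these fits are not given here, so these counts cannot be read as particular to the members. The member median in olaparib ranged from 0.96, without the IgG-IP array numbered 1, to 2.13. SLC30A7 ranged from 1.71 to 5.09 in DMSO (adjusted p = 0.224 to 1.0 by limma) and from 2.76 to 5.96 in gemcitabine (0.0907 to 0.749), and SLC39A9 from 1.21 to 5.02 and from 1.74 to 4.21. In DMSO SLC30A1 ranged from -1.11 to 0.31, SLC30A5 from -0.70 to 0.93, SLC30A9 from -0.56 to 2.56 and SLC39A6 from -2.21 to 0.81. In gemcitabine SLC30A1 ranged from -1.36 to 0.49, SLC30A9 from -0.40 to 2.88, SLC39A6 from -2.15 to 1.07 and SLC39A14 from -0.66 to 2.13. Gemcitabine minus DMSO ranged from -0.96 to 0.89 for SLC30A1, -0.64 to 0.74 for SLC30A4, -0.34 to 1.28 for SLC30A5, -0.0842 to 1.46 for SLC30A6, -0.74 to 2.65 for SLC30A7, -1.40 to 1.87 for SLC30A9, -1.45 to 1.77 for SLC39A6, -2.04 to 1.76 for SLC39A9, -0.61 to 1.35 for SLC39A10 and -1.62 to 1.17 for SLC39A14.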
